A study of Homo sapiens with 6 samples.

Results

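Type I interferon response genes are switched on in a cell that senses foreign or double-stranded RNA. The 44 genes described here were chosen by name as known members of that response, to ask whether siRNA expressed from a vector set it off in the human fibrosarcoma cell line HT1080. Of the 44 genes, 43 were represented by 71 of the 22283 probe sets of the array, counting probe sets annotated with a single gene symbol. STAT2, a transcription factor of the pathway, had no probe set named in the annotation and was not analysed here. A probe set is a group of short probes against one transcript, and its value is called its signal. Total RNA had been measured on 6 single-channel arrays in 3 groups of 2. One group was transfected with the pGUS vector expressing GFP and an siRNA against MT1-MMP (the product of MMP14), a second with the pGUS vector expressing GFP and an siRNA against integrin alpha3 (the product of ITGA3), and the mock group with the pGUS vector expressing GFP only. All 3 groups therefore carried the vector and GFP, and a response common to all of them cannot be seen as a difference. Whether the cells of a group were a pool or a clone, and whether its 2 arrays stand for separate cultures, is not given in the sources used here. Each p-value therefore reflects array-to-array spread alone, and that spread may be technical. RNA of the whole culture was measured, so fewer responding cells and less RNA per cell cannot be told apart.

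Interferon alpha and beta act through the receptor pair IFNAR1 and IFNAR2 and the kinases JAK1 and TYK2. These activate a complex of STAT proteins with IRF9, which binds the interferon-stimulated response element in the promoters of its target genes. Double-stranded RNA is sensed in the cytosol by helicases such as those encoded by RIGI and IFIH1, and it activates EIF2AK2 (the kinase PKR) and the OAS enzymes directly. Small interfering RNA made inside a cell passes through a double-stranded form, and these genes are a common check for an unspecific response to it.

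The response element was present near the start of most of these genes. RefSeq promoter windows (250 bases before to 50 after the start, build GRCh38.p14) matched 34 of the 44 genes by symbol. The interferon-stimulated response element, searched on both strands as GAAA, any 2 bases and GAAA, occurred in a window of 23 of those 34 genes (67.6%), against 4.38% of the 27305 genes in the table. The letters TTCNNNGAA, the gamma-activated site, read the same on both strands and occurred in 10 of the 34 genes (29.4%), against 9.38% of all genes. A match describes the sequence and does not show binding. The windows of 5 genes described below, each with a match, are given 5′ to 3′, with every match to the response element on either strand in capitals. Other genes described below, among them IRF9, SP100, OAS1 and IFI16, had a window but no match to the response element. The 2 matches of ISG15 overlap each other, and the IFI27 window holds one match in each orientation with a TTCNNNGAA match between them that shares bases with both.
IFI27 promoter, chr14:94110486-94110785, plus strand: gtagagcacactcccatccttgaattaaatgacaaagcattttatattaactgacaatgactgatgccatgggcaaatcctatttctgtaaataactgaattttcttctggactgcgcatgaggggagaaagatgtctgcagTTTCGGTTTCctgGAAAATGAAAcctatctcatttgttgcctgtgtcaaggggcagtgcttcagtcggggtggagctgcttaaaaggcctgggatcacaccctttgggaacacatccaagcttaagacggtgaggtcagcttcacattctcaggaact
IFI6 promoter, chr1:27672143-27672442, minus strand: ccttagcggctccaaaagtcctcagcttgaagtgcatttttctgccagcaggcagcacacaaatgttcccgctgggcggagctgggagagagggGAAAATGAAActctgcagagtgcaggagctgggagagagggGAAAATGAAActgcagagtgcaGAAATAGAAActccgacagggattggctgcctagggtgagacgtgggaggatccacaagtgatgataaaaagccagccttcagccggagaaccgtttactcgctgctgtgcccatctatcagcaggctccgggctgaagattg
ISG15 promoter, chr1:1013247-1013546, plus strand: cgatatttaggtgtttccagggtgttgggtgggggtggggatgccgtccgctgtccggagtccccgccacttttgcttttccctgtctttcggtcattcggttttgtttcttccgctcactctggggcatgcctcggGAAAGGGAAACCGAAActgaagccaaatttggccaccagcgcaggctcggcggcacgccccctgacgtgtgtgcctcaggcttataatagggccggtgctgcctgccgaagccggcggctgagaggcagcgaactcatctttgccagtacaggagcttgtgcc
IFITM1 promoter, chr11:313790-314089, plus strand: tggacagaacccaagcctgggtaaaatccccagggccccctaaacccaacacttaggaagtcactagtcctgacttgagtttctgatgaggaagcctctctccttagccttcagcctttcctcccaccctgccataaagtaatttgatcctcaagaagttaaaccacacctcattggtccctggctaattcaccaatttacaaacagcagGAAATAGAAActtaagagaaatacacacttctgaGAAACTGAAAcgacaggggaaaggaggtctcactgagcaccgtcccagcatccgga
LGALS3BP promoter, chr17:78979874-78980173, minus strand: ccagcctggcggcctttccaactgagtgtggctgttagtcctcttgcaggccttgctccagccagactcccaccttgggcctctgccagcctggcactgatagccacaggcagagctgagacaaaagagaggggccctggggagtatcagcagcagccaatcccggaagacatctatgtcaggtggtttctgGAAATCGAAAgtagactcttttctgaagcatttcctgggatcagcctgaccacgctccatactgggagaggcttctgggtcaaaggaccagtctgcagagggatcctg

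The arrays had median signals between 72.9 and 83.1, and the 3′ to 5′ ratios of GAPDH and actin lay between 0.850 and 1.01. Relative to the mock mean, the 18 hybridisation control probe sets had median folds of 2.30 and 1.29 on the MT1-MMP siRNA arrays, 0.812 and 0.841 on the alpha3 siRNA arrays, and 0.927 and 1.07 on the mock arrays. MMP14 had signals of 812 and 717 on the MT1-MMP siRNA arrays against 1971 and 3064 on the mock arrays, and ITGA3 had 148 and 347 on the alpha3 siRNA arrays against 1139 and 1290 on the mock arrays. In alpha3 siRNA cells MMP14 gave 999 and 1804, below both mock arrays as well (log2 fold change -0.86, SE 0.31, limma adjusted p = 0.851). The mesenchymal marker VIM had signals of 12271 to 17700 on the 6 arrays. The epithelial markers CDH1, EPCAM and KRT19 and the leukocyte markers PTPRC and CD14 stayed at or below 29.3, while KRT8, KRT18, CD3E, LCP1 and the endothelial marker PECAM1 were bright enough to be tested.

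Log2 fold changes were taken on log2(signal + 32), a scale that understates changes of dim genes. A gene was tested where its mean lay above the 40th percentile of all probe sets, a signal of 47.5, and the brightest probe set of a gene was used. Of the 43 genes, 35 passed this filter and were tested among 8045 genes. The threshold was an adjusted p under 0.05 in limma, with Benjamini-Hochberg adjustment over all 8045 genes.

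Of the 43 genes, 8 had a mean over the 6 arrays below the filter, several of them genes that interferon induces strongly. The 8 genes below the filter were IFIT1, IFI44L, IFIH1, IRF7, USP18, BST2, RSAD2 and XAF1, and their 9 probe sets ranged from 0.5 to 73.3 over the 6 arrays. IFI44L, a gene of unsettled function that interferon induces, had signals of 5.6 and 2.4 on the MT1-MMP siRNA arrays, 7.5 and 1.5 on the alpha3 siRNA arrays, and 1.2 and 2.3 on the mock arrays. IRF7, the transcription factor that amplifies interferon production, had 7.2 and 7.4 in MT1-MMP siRNA cells, 7.8 and 4.2 in alpha3 siRNA cells, and 5.5 and 4.7 in mock cells. RSAD2, the antiviral enzyme viperin, stayed between 6.4 and 25.9, and BST2, which tethers virus particles to the cell surface, between 4.9 and 21.7. Detection calls were not used here, so such signals cannot be told from background. IFIT1, which binds viral RNA that lacks the host's cap marks, had 64.9 and 15.4 in MT1-MMP siRNA cells, 49 and 12.4 in alpha3 siRNA cells, and 12.3 and 73.3 in mock cells. Each group had one array of IFIT1 at or above 49 and one at or below 15.4, and the highest of all was a mock array. XAF1 stood out on one array, at 66.2 on alpha3 siRNA replicate 1, against 3.0 to 19.8 on the other arrays.

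**Figure D1:**
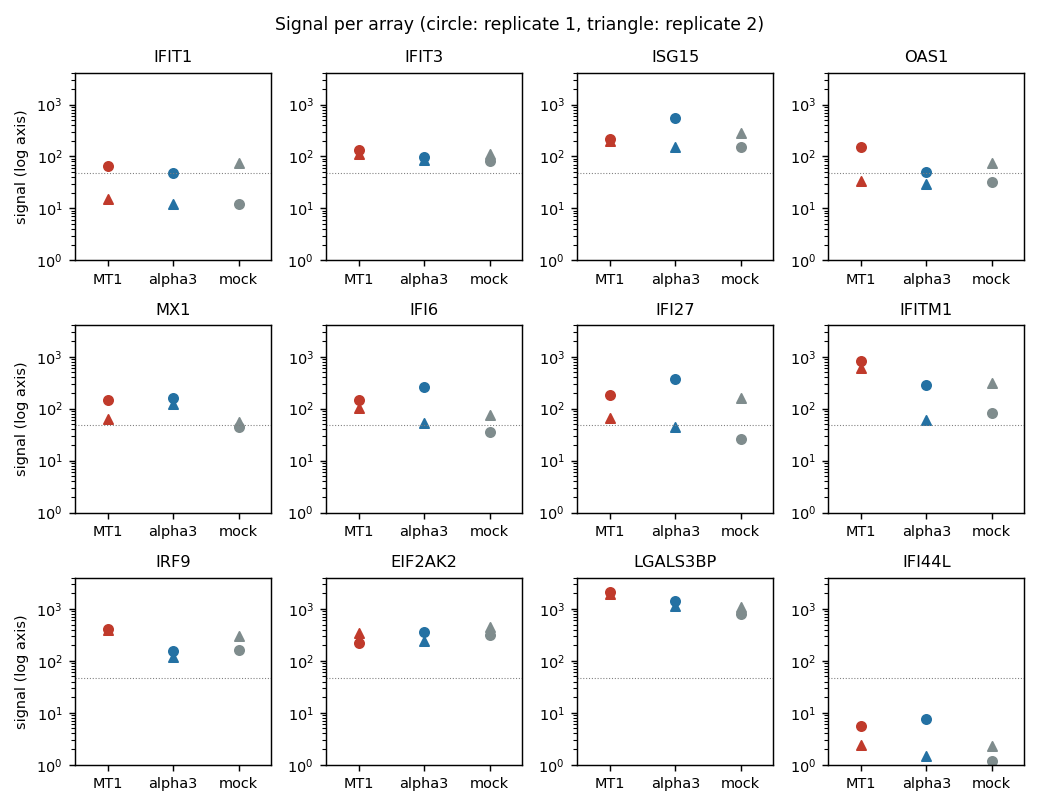
Signal of 12 genes (log axis) on each array, with MT1-MMP siRNA at left, alpha3 siRNA in the middle and mock at right. Circles are replicate 1, triangles replicate 2, and the dotted line is the signal of 47.5 that the filter corresponds to. The arrays of IFIT1, ISG15, OAS1 and IFI27 overlap between all 3 groups, the MX1 mock arrays lie at 44.3 and 55.3 below all siRNA arrays, and IFI44L stays at or below 7.5.

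Against mock, MT1-MMP siRNA left 0 of the 35 tested genes past the threshold in limma (0% of all 8045 genes passed), and the lowest adjusted p among them was 0.148. At an unadjusted p under 0.05 there were 7 higher genes (20%, against 6.76% of all genes) and 1 lower gene (2.86%, against 7.66%). The arrays did not overlap between the groups for 12 higher genes (34.3%, against 24.6%) and 2 lower genes (5.71%, against 25.3%). Their log2 fold changes had a median of 0.40, with 23 of the 35 above 0 (50.3% of all genes were) and quartiles of -0.036 and 0.54, while the median of all genes was 0.0024 with quartiles of -0.24 and 0.24. By role, all 4 GTPases, all 3 tested membrane factors and all 8 tested genes of mixed function (among them IFI6, IFI27 and LGALS3BP) lay above 0, against 2 of 3 IFIT proteins, 2 of 6 double-stranded RNA enzymes and sensors, 2 of 6 nuclear body and TRIM proteins, 1 of 2 transcription factors and 1 of 3 genes of the ISG15 system. That median rested on single arrays. It was 0.020 without mock replicate 1 and 0.064 without MT1-MMP siRNA replicate 1. The count at an unadjusted p under 0.05 also fell in these 2 fits. Each leaves 1 array in a group and so is less precise for every gene. The hybridisation controls were brightest on MT1-MMP siRNA replicate 1, and their part in this result was not tested.

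With alpha3 siRNA against mock, 0 of the 35 genes passed in limma as well (0.0249% of all genes passed), and the lowest adjusted p among them was 0.847. At an unadjusted p under 0.05, MX1 was higher (2.51% of all genes were) and IFI16 and ISG20 were lower (3.22% of all genes were). Arrays did not overlap for 3 higher genes (8.57%, against 16.4%) and 8 lower genes (22.9%, against 18% as the background). The median log2 fold change was -0.14, with 11 of the 35 genes above 0 (48% of all genes were), on the other side of 0 from the value with MT1-MMP siRNA, and it was -0.35 without alpha3 siRNA replicate 1, 0.0029 without alpha3 siRNA replicate 2, -0.24 without mock replicate 1 and -0.0054 without mock replicate 2. Which genes were at an unadjusted p under 0.05 also changed on leaving out an array of either group, in fits with 1 array in that group. By role, 5 of the 8 genes of mixed function, 2 of 3 IFIT proteins, 2 of 3 genes of the ISG15 system, 1 of 4 GTPases and 1 of 6 double-stranded RNA enzymes and sensors lay above 0, and 0 of the membrane factors, transcription factors, and nuclear body and TRIM proteins did. Both comparisons share the mock arrays.

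**Figure D2:**
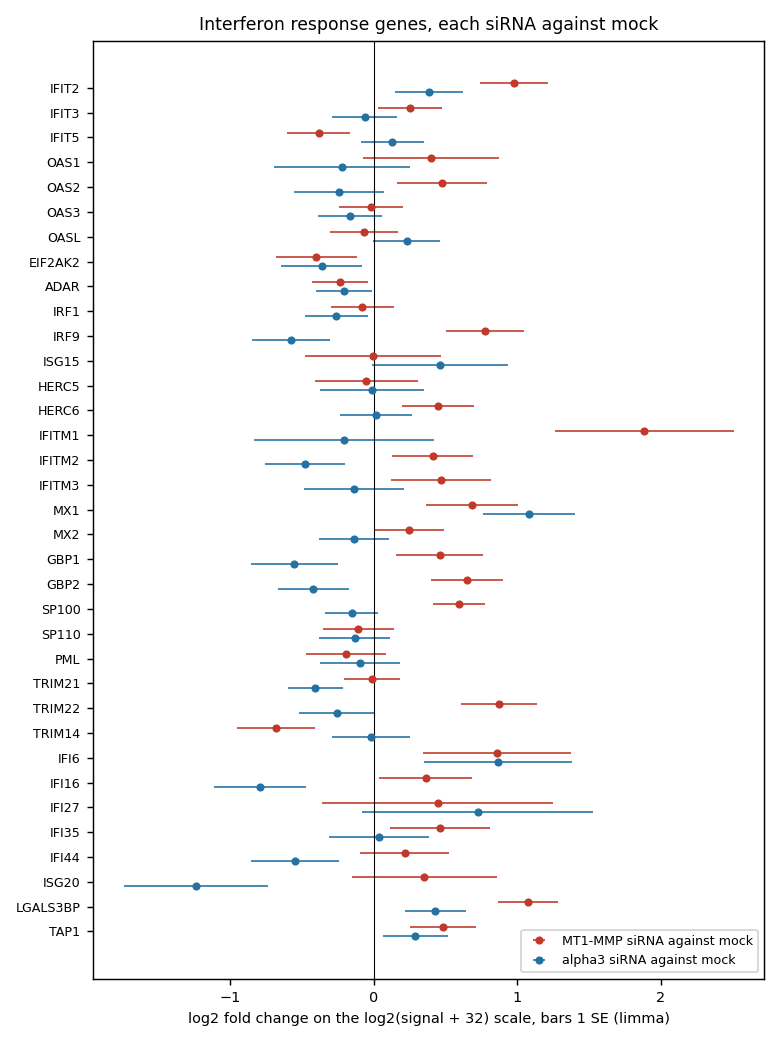
Log2 fold change of each tested gene for MT1-MMP siRNA against mock (red) and alpha3 siRNA against mock (blue) on the log2(signal + 32) scale, with bars of 1 SE from limma. With MT1-MMP siRNA 23 of the 35 genes lie above 0, and with alpha3 siRNA 11 do.

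When both siRNA groups together were set against mock, 0 genes passed in limma (0.0124% of all genes passed, lowest adjusted p of the 35 genes 0.814). At an unadjusted p under 0.05 there were 3 higher genes, LGALS3BP, IFIT2 and MX1 (8.57%, against 2.66% of all genes), and 0 lower genes (2.44% of all genes). These 3 genes were also the ones for which all 4 siRNA arrays lay above both mock arrays (8.57%, against 4.91%). All siRNA arrays lay below mock for 0 genes (4.75% of all genes). IFIT2 had both mock arrays below the signal that the filter corresponds to, and it passed the filter through its siRNA arrays. The median log2 fold change was 0.088, with 20 genes above 0 (48.1% of all genes were), and it lay between -0.10 and 0.26 on leaving out 1 array at a time, with the ends from the mock arrays. More genes were at an unadjusted p under 0.05 without alpha3 siRNA replicate 2, a fit with 1 array in that group. The share of all genes at that level is not given for that fit.

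LGALS3BP encodes a secreted glycoprotein that binds galectins. It had signals of 2134 and 1928 on the MT1-MMP siRNA arrays, 1423 and 1156 on the alpha3 siRNA arrays, and 807 and 1107 on the mock arrays, so both siRNA groups lay above mock without overlap. Its log2 fold change against mock was 1.08 with MT1-MMP siRNA (SE 0.21, limma adjusted p = 0.148), 0.43 with alpha3 siRNA (SE 0.21, adjusted p = 0.863) and 0.75 with both (SE 0.18, adjusted p = 0.814). Without mock replicate 1 the difference with alpha3 siRNA was 0.21, and without mock replicate 2 it was 0.65.

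MX1, a GTPase that blocks influenza and other viruses, had 149 and 63.3 in MT1-MMP siRNA cells, 162 and 121.5 in alpha3 siRNA cells, and 44.3 and 55.3 in mock cells. The second MT1-MMP siRNA array stood only slightly above the mock arrays. Its log2 fold change was 0.69 with MT1-MMP siRNA (SE 0.32, limma adjusted p = 0.372) and 1.08 with alpha3 siRNA (SE 0.32, adjusted p = 0.847). Its MT1-MMP siRNA difference was 0.22 when replicate 1 of that group was left out. The related MX2, GBP1 and GBP2, also interferon-induced GTPases, lay above mock with MT1-MMP siRNA by 0.25, 0.46 and 0.65 and below it with alpha3 siRNA by -0.14, -0.56 and -0.42 on the log2 scale, and none of them passed.

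Of the IFIT proteins, which bind foreign RNA and restrain its translation, IFIT2 had 98.5 and 99.7 in MT1-MMP siRNA cells, 51.7 and 58.2 in alpha3 siRNA cells, and 40.7 and 28.9 in mock cells. With MT1-MMP siRNA it lay 0.98 above mock on the log2 scale (SE 0.24, limma adjusted p = 0.176). Both mock signals of IFIT2 lay below the signal that the filter corresponds to, so the gene passed the filter through its siRNA arrays. The values of IFIT2 are given after they were seen, as are those of IFIT5, MX2, GBP1, GBP2, ISG20, IFI16, TRIM22, TRIM14, SP100, ADAR, IRF1 and the genes of the dim group other than IFIT1 and IFI44L. IFIT3 had 132 and 111 in MT1-MMP siRNA cells, 96.7 and 85.4 in alpha3 siRNA cells, and 82.4 and 112 in mock cells. Its MT1-MMP siRNA and mock arrays overlapped by a narrow margin, and the log2 differences from mock were 0.25 (SE 0.23, adjusted p = 0.648) with MT1-MMP siRNA and -0.063 under alpha3 siRNA (SE 0.23, adjusted p = 0.979). IFIT5 lay lower with MT1-MMP siRNA, at 152 and 193 against 259 and 210.4 in mock cells, so the tested probe sets of the family did not lie on one side of mock. The other IFIT5 probe set, below the filter, had 18.4 and 54.7 against 18.1 and 37.2, which is 0.17 above mock on the log2 scale.

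The enzymes and sensors of double-stranded RNA, the part of the response nearest to an siRNA, showed 0 genes at an unadjusted p under 0.05 among 6 tested in either comparison against mock. Over all genes, 6.76% were higher and 7.66% lower at that level in MT1-MMP siRNA cells, and in alpha3 siRNA cells 2.51% were higher and 3.22% lower, so a count of 0 among 6 is near the background. Of the 6, 2 lay above 0 with MT1-MMP siRNA and 1 under alpha3 siRNA. EIF2AK2, which encodes the kinase that stops translation when it binds double-stranded RNA, had 223.5 and 350.7 in MT1-MMP siRNA cells, 352 and 236 in alpha3 siRNA cells, and 322 and 450.3 in mock cells, and all 3 groups overlapped. Its other probe set ran from 245 to 324 and had log2 fold changes of 0.091 and 0.068, against -0.40 and -0.36 on the brighter one, so the sign depended on the probe set. OAS1, which makes the messenger that activates the nuclease RNase L, had 149.8 and 34 in MT1-MMP siRNA cells, 50.7 and 29.5 in alpha3 siRNA cells, and 32.2 and 75.7 in mock cells. One MT1-MMP siRNA array was well above the rest and the other was near the lower mock array, and the log2 differences from mock were 0.40 (SE 0.47, limma adjusted p = 0.739) and -0.22 with alpha3 siRNA (SE 0.47, adjusted p = 0.962). The second probe set of OAS1, below the filter, had the same 3 arrays highest, with 113 and 15 in MT1-MMP siRNA cells, 28.5 and 19.2 in alpha3 siRNA cells, and 5.6 and 51.7 in mock cells. ADAR, which edits double-stranded RNA, lay between 919 and 1304 on all arrays, with its highest signal on a mock array.

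ISG15, a ubiquitin-like protein that is attached to other proteins, had 212 and 202 in MT1-MMP siRNA cells, 546 and 155 in alpha3 siRNA cells, and 153 and 278 in mock cells. The alpha3 siRNA pair held the highest signal and one close to the lowest. Against mock the log2 differences were -0.0046 with MT1-MMP siRNA (SE 0.47, limma adjusted p = 0.997) and 0.46 with alpha3 siRNA (SE 0.47, adjusted p = 0.919). IFI6, a mitochondrial and endoplasmic reticulum protein, had 145 and 104 in MT1-MMP siRNA cells, 256 and 52.2 in alpha3 siRNA cells, and 35.3 and 76.7 in mock cells. It lay 0.86 above mock on the log2 scale with either siRNA (SE 0.52 each, limma adjusted p = 0.478 with MT1-MMP siRNA and 0.877 under alpha3 siRNA), yet the alpha3 siRNA value was -0.023 without replicate 1 of that group and 1.75 without replicate 2. IFI27, a small membrane protein that is among the genes most raised by interferon alpha, had 181 and 65.6 in MT1-MMP siRNA cells, 374 and 43.6 in alpha3 siRNA cells, and 26.1 and 161 in mock cells. All 3 pairs of IFI27 overlapped, lying above mock by 0.44 on the log2 scale (SE 0.81, limma adjusted p = 0.837) with MT1-MMP siRNA and by 0.73 (SE 0.81, adjusted p = 0.922) with alpha3 siRNA.

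The IFITM proteins sit in cell membranes and hinder virus entry. IFITM1 had 830 and 600.3 in MT1-MMP siRNA cells, 289 and 61.1 in alpha3 siRNA cells, and 82.4 and 317 in mock cells. Both MT1-MMP siRNA arrays were above all others, and the alpha3 siRNA pair covered nearly the same span as the mock pair. Its log2 fold change with MT1-MMP siRNA was 1.89 (SE 0.62, limma adjusted p = 0.248), the highest of the 35 genes, and with alpha3 siRNA -0.21 (SE 0.62, adjusted p = 0.972). Leaving out mock replicate 1 gave 1.08, and leaving out mock replicate 2 gave 2.69. A probe set annotated with both IFITM1 and IFITM2 had 1206 and 587 in MT1-MMP siRNA cells, 422 and 97.4 in alpha3 siRNA cells, and 126 and 358 in mock cells, and it too was highest on both MT1-MMP siRNA arrays. The close relatives IFITM2 (6413 and 3403, then 2791 and 2252, against 3269 and 3769 in mock cells) and IFITM3 (6299 and 3359, then 3997 and 2258, against 2835 and 3875) had log2 fold changes of 0.41 and 0.47 with MT1-MMP siRNA (SE 0.28 and 0.35, adjusted p = 0.537 and 0.570) and -0.48 and -0.14 with alpha3 siRNA (adjusted p = 0.875 and 0.966). These genes are near-identical copies, so their probe sets cannot be given to 1 gene with certainty, and for both the MT1-MMP siRNA value came from replicate 1 (-0.045 and 0.019 without it).

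Among the transcription factors, IRF9, the DNA-binding partner of the STAT proteins, had 411 and 390 in MT1-MMP siRNA cells, 156 and 120 in alpha3 siRNA cells, and 162 and 297 in mock cells. The MT1-MMP siRNA arrays lay above mock and the alpha3 siRNA arrays below it, with log2 fold changes of 0.77 (SE 0.27, limma adjusted p = 0.266) and -0.58 (SE 0.27, adjusted p = 0.855). Without mock replicate 1 the first was 0.39 and the second -0.96, and without mock replicate 2 they were 1.15 and -0.20. A probe set annotated with both IRF9 and RNF31 did not show this order, with 115.9 and 87.6 in MT1-MMP siRNA cells, 97.7 and 105 in alpha3 siRNA cells, and 126 and 121 in mock cells. IRF1, which acts early in the response, stayed between 118 and 187 on all arrays.

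Between the siRNA groups, 14 of the 35 genes reached an unadjusted p under 0.05, more than in either group against mock (8 and 3). All genes followed the same order, so the larger count is not particular to the interferon genes. The share of all genes that were higher at that level was 11.7% between the siRNAs, 6.76% with MT1-MMP siRNA against mock and 2.51% with alpha3 siRNA against mock. For lower genes these shares were 11.7%, 7.66% and 3.22%. When MT1-MMP siRNA was set against alpha3 siRNA, 0 of the 35 genes passed in limma (1.39% of all genes passed). Of the 35, 24 lay above 0 (51.9% of all genes did). At an unadjusted p under 0.05 there were 12 higher genes (34.3%, against 11.7% of all genes) and 2 lower ones (5.71%, against 11.7%). Arrays did not overlap for 18 higher genes (51.4%, against 28%) and 3 lower genes (8.57%, against 25.9%). For GBP2, IRF9 and SP100 both MT1-MMP siRNA arrays lay above both mock arrays and both alpha3 siRNA arrays below them (8.57%, against 4.6% of all genes). IRF9 came nearest to the threshold, 1.35 higher on the log2 scale with MT1-MMP siRNA (SE 0.27, adjusted p = 0.0538), and it passed with an offset of 100, with a filter at the 60th percentile, with the mock arrays out of the fit, and without either mock array (adjusted p from 0.0458 to 0.0492). TRIM22, an antiviral ubiquitin ligase, had 852.5 and 691.8 with MT1-MMP siRNA against 392.0 and 283.1 with alpha3 siRNA (1.13, SE 0.26, adjusted p = 0.0663). GBP2 had 208 and 139.9 against 71.5 and 57.9 (1.07, SE 0.25, adjusted p = 0.0656). SP100, a protein of nuclear bodies, had 505 and 547 against 308 and 292 (0.75, SE 0.18, adjusted p = 0.0725). Its 4 probe sets above the filter ran from -0.58 to 0.75. IFI16, a sensor of DNA, had 1843 and 1179.7 against 625 and 667 (1.15, SE 0.32, adjusted p = 0.0921). Its 3 probe sets lay between 1.02 and 1.15. ISG20, an RNA exonuclease, had 436 and 296 against 151 and 60.1 (1.59, SE 0.50, adjusted p = 0.115). Its signal was 495 on mock replicate 2. TRIM14, which acts in antiviral signalling at mitochondria, ran the other way, at 203 and 258 against 284 and 509 (-0.66, SE 0.27, adjusted p = 0.192). Fewer genes were at an unadjusted p under 0.05 without the first MT1-MMP siRNA array, a fit with 1 array in that group. The share of all genes at that level is not given for that fit.

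The 2 arrays of a group also differed, and most of the interferon genes were shifted to the same side. On MT1-MMP siRNA replicate 1, 26 of the 35 genes were higher than on replicate 2 (48.5% of all genes were), with a median difference of replicate 1 minus replicate 2 of 0.19 on the log2 scale. On alpha3 siRNA replicate 1, 28 genes were higher than on replicate 2 (48.7% of all genes were), with a median of 0.34. The mock arrays ran the other way, with 30 genes higher on replicate 2 (49.7% of all genes were) and a median of -0.36, against 0.0023 over all genes. All 3 of these majority directions held at once for 20 of the 35 genes (57.1%, against 16.1% of all genes), IFI27, IFI6, ISG15, OAS1, IFITM1, MX1 and IRF9 among them. The directions were taken from these same genes, so a share above that of all genes is already built into the 3 counts just given. It is not a further result. IFI27 and OAS1 were higher by at least 1 on the log2 scale on MT1-MMP siRNA replicate 1 than on replicate 2 (1.24% of all genes were). IFI27, IFI6, ISG15, IFITM1 and HERC5 were higher by that much on alpha3 siRNA replicate 1 (2.41% of all genes were), and IFI27, IFITM1 and ISG20 on mock replicate 2 (1.7% of all genes were). For IFI27, replicate 1 minus replicate 2 was 1.13 in the MT1-MMP siRNA pair, 2.42 in the alpha3 siRNA pair and -1.73 in the mock pair, against group differences from mock of 0.44 and 0.73. Across the 35 genes, the difference of replicate 1 minus replicate 2 in the alpha3 siRNA pair had a correlation of -0.55 with that in the mock pair, against -0.18 over all 8045 genes. For the MT1-MMP siRNA pair and the mock pair it was -0.32 over the 35 genes, also against -0.18, and genes are not independent replicates.

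**Figure D3:**
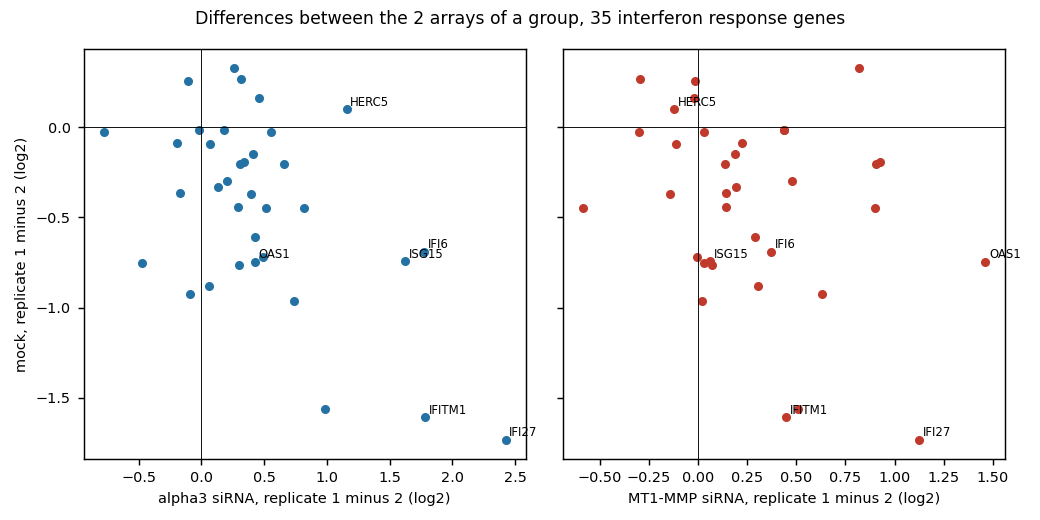
Log2 difference between replicates 1 and 2 for each of the 35 tested genes, with the alpha3 siRNA pair (left) or the MT1-MMP siRNA pair (right) on the x axis and the mock pair on the y axis. Most genes lie in the lower right corner, higher on replicate 1 of the siRNA group and on replicate 2 of mock, with IFI27 at 2.42 and -1.73 in the left panel.

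As a level per array, the median deviation of the 35 genes from their mean over the 6 arrays was 0.39 and 0.075 on the MT1-MMP siRNA arrays, -0.013 and -0.38 on the alpha3 siRNA arrays, and -0.26 and 0.13 on the mock arrays. MT1-MMP siRNA replicate 1 was the highest array for 15 of the 35 genes, and alpha3 siRNA replicate 2 and mock replicate 1 were the lowest for 16 and 11. The pooled SD between replicate arrays of this median was 0.26, and mock replicate 2 lay above MT1-MMP siRNA replicate 2. The shift was seen with and without a match to the response element. Among tested genes the median log2 difference of mock replicate 1 minus replicate 2 was -0.44 for the 18 with a match, -0.36 for the 9 without one and -0.25 for the 8 with no window.

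**Figure D4:**
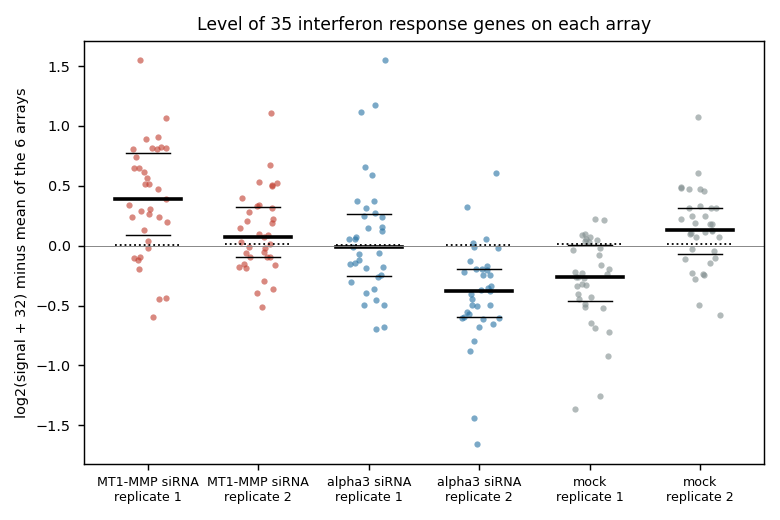
Deviation of each of the 35 genes from its mean over the 6 arrays (log2), by array. Thick lines are medians (from 0.39 on MT1-MMP siRNA replicate 1 to -0.38 on alpha3 siRNA replicate 2), thin lines quartiles, and dotted lines the median of all 8045 genes, which stays within 0.014 of 0.

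**Figure D5:**
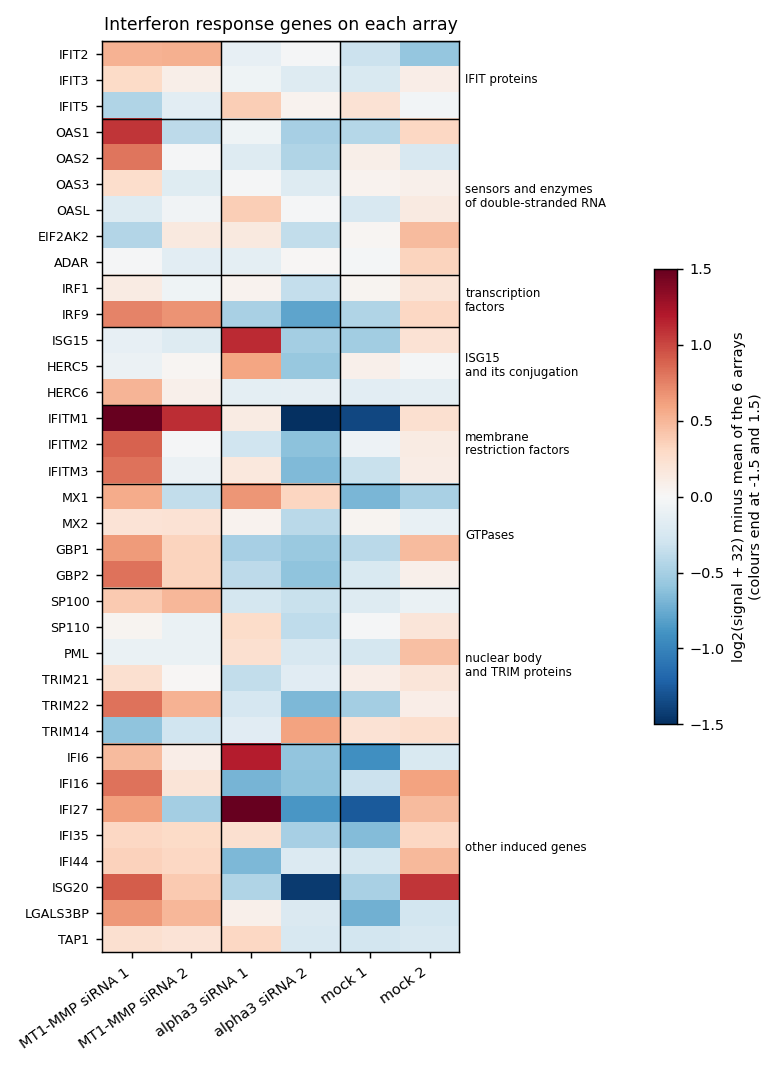
The same deviations gene by gene, in the order of their roles, with red above and blue below the mean of the 6 arrays. IFI27 changes colour within all 3 groups. IRF9, TRIM22, SP100 and ISG20 are red on both MT1-MMP siRNA arrays and blue on both alpha3 siRNA arrays, and of these IRF9, TRIM22 and ISG20 change colour between the mock arrays.

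Upstream parts of the pathway were listed with the interferons first. At an unadjusted p under 0.05, 6.76% of all genes were higher and 7.66% lower with MT1-MMP siRNA, and 2.51% were higher and 3.22% lower with alpha3 siRNA, so a count of 0 or 1 among the few genes of each list is near these shares. Of 15 listed interferon genes, 14 had a probe set, 2 passed the filter and 0 were at an unadjusted p under 0.05, and IFNB1 had 3.5 and 4.2 in MT1-MMP siRNA cells, 8.4 and 2.3 in alpha3 siRNA cells, and 3.0 and 3.1 in mock cells. Of 8 tested receptors, kinases and signal transducers, 0 were at an unadjusted p under 0.05 in either comparison against mock, and their median log2 fold changes were -0.09 and -0.10. Among 10 tested genes of RNA sensing, 1 was higher with MT1-MMP siRNA at that level. It was RIGI, with 176 and 221 in MT1-MMP siRNA cells, 92.6 and 87 in alpha3 siRNA cells, and 93.7 and 132 in mock cells, and its adjusted p against mock was 0.253. Of 5 tested cytokines of the double-stranded RNA response, 1 was higher (IL15) and 1 lower (CXCL8) with MT1-MMP siRNA and CXCL8 was lower with alpha3 siRNA. CXCL8, the chemokine interleukin 8, had 505 and 269.9 in MT1-MMP siRNA cells, 101 and 181 in alpha3 siRNA cells, and 795 and 1647 in mock cells, with adjusted p-values of 0.186 and 0.136, while CXCL10, a chemokine that interferon induces, had 73.9 and 122, then 55.9 and 54.1, against 111 and 71.1 in mock cells. Of 7 tested genes of negative feedback, 0 were at an unadjusted p under 0.05 against mock, and SOCS1 was below the filter.

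Antigen presentation genes, which interferons of either type raise, were listed as well. Of 11 tested, 6 were higher than mock at an unadjusted p under 0.05 with MT1-MMP siRNA (6.76% of all genes were, median log2 fold change of the 11 genes 0.63) and 0 under alpha3 siRNA (2.51% of all genes were, median 0.067), and 0 passed the limma threshold in either comparison. Between the siRNAs, 5 of the 11 were higher with MT1-MMP siRNA and 1 lower at an unadjusted p under 0.05 (11.7% of all genes each way). The lower one, TAP2, had log2 fold changes of -0.62 there and -0.32 with MT1-MMP siRNA against mock. HLA-B, a heavy chain of the class I complex, had 1624 and 1161 in MT1-MMP siRNA cells, 484 and 315 in alpha3 siRNA cells, and 335 and 599 in mock cells. Between the siRNAs it differed by 1.73 on the log2 scale (SE 0.32, limma adjusted p = 0.0425). It was the 1 gene of the 11 called there (1.39% of all genes were). That call was lost with an offset of 1 (adjusted p = 0.0557), without a filter (0.0760), with the mean of the probe sets (0.0534), without the intensity trend (0.0607) and on leaving out any array of either group (0.0569 to 0.268). HLA class I genes are similar enough for their probe sets to share signal. The 6 mesenchymal markers had summed signals of 60791 and 47761 in MT1-MMP siRNA cells, 36736 and 33285 in alpha3 siRNA cells, and 32793 and 39073 in mock cells. One of them, fibronectin (FN1), had 12635 and 9354, then 5237 and 1882, against 1869 and 5529 in mock cells. Their sum was, like the interferon gene level, highest on MT1-MMP siRNA replicate 1 and lower on alpha3 siRNA replicate 2 than on replicate 1 and on mock replicate 1 than on replicate 2, and their part in the result was not tested. The epithelial markers KRT8 and KRT18, the 2 tested of 5 listed, had summed signals of 2685 and 2238 in MT1-MMP siRNA cells, 4578 and 4165 in alpha3 siRNA cells, and 2966 and 3151 in mock cells. KRT8, a keratin, had 609 and 431, then 1457 and 945, against 485 and 609 in mock cells. The endothelial marker PECAM1, the 1 tested of 4 listed, had 72.2 and 106 in MT1-MMP siRNA cells, 96.5 and 48.6 in alpha3 siRNA cells, and 78.9 and 108 in mock cells. The leukocyte markers had summed signals of 596 and 424 in MT1-MMP siRNA cells, 1083 and 368 in alpha3 siRNA cells, and 903 and 428 in mock cells, over the 2 tested of the 5 listed. The part of these markers in the differences between the groups was not tested.

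Different probe sets of a gene did not always run the same way. Of 9 genes with several probe sets above the filter, 5 had the same sign on all of them with MT1-MMP siRNA against mock and 5 with alpha3 siRNA against mock. EIF2AK2, PML and SP100 differed in sign in both comparisons, while GBP1 did so for MT1-MMP siRNA alone and TRIM14 for alpha3 siRNA alone. PML, the scaffold of nuclear bodies, ran from -0.36 to 0.032 and from -0.17 to 0.13 over 6 probe sets.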

How the data were processed

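The deposited values are a linear intensity for each probe set. All 6 arrays have a trimmed mean (middle 96% of values) of 250.1, which shows from the values that they were on a common scale when deposited; how probes were summarised and background removed is not given in the sources used here. Within a group, the arrays never held the same value on more than 78 of the 22283 probe sets. In the platform annotation 19065 probe sets had 1 symbol (array controls apart), 1043 had several and were left out, and 2169 had none.

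Values were floored at 1 and analysed as log2(value + 32). The filter at the 40th percentile left 8045 genes, each at its brightest probe set. A model of 3 group means was fitted over the 6 arrays (limma 3.58.1, R 4.3.3) with eBayes and an intensity trend (3 residual and 5.35 prior degrees of freedom), and the fit was tested on simulated data. The number of arrays limits the precision. The members and gene lists were chosen with earlier results of these data known, so no test was made over the list. Values on all arrays are given for called genes, for those changed by at least 1 without overlap against mock, for 12 genes fixed by name (of which STAT2 had no probe set) and for the 3 with the highest signals; brightness is not comparable between probe sets. Same-numbered arrays were checked for pairing: replicate differences correlated at -0.18 between mock and either siRNA group and at 0.13 between the siRNA groups. Figures were drawn with matplotlib 3.10.9.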

Additional observations from a re-analysis of the deposited data

Results flagged for a closer look

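For 3 of the 35 tested genes (8.57%, against 4.6% of all 8045 genes), both MT1-MMP siRNA arrays lay above both mock arrays while both alpha3 siRNA arrays lay below them. The difference between the siRNAs was 1.07 on the log2 scale for GBP2, 1.35 for IRF9 and 0.75 for SP100, and the test of that difference in limma gave adjusted p-values of 0.0656, 0.0538 and 0.0725. The probe set that IRF9 shares with RNF31 did not show the pattern. For SP100 only the brightest probe set showed this pattern. On its other probe sets above the filter the difference between the siRNAs was 0.37, -0.58 and -0.32.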

How the results depend on the processing

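Results were recomputed after quantile or 75th percentile scaling, with an offset of 1 or of 100, without a filter or with one at the 60th percentile, with all or averaged probe sets, without the intensity trend, with only the groups of the contrast, a replicate block, and without each array. The scalings shifted the median of all genes by -0.028 to 0.022. Counts of called members stayed at 0 in the comparisons of a single siRNA and of both siRNAs with mock under all of these. Between the siRNAs 1 member, IRF9, was called with an offset of 100, with the 60th percentile filter and with only those 2 groups in the fit, and 0 to 1 on leaving out 1 array. With every probe set, the median with MT1-MMP siRNA was 0.091 and 5 probe sets were at an unadjusted p under 0.05 with alpha3 siRNA, 3 of them of IFI16; with the 60th percentile filter, which MX1 and IFIT2 do not pass, 1 member (LGALS3BP) was at that level with both siRNAs. Leaving out 1 array moved the count at an unadjusted p under 0.05 from 2 to 11 with MT1-MMP siRNA, 1 to 6 with alpha3 siRNA, 3 to 8 with both and 5 to 14 between the siRNAs. It moved the medians from 0.020 to 0.54, from -0.35 to 0.0029, from -0.10 to 0.26 and from 0.20 to 0.54 in the same order.

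With the replicate block, 0 members were called in each of the 4 comparisons, so it changed no member's call. Of all 8045 genes it called 11 with MT1-MMP siRNA, 4 with alpha3 siRNA and 0 with both. The mock replicate differences ran against those of both siRNA groups, so the block was also fitted with the mock numbers crossed. This choice was made after seeing the data. It called 1 member with MT1-MMP siRNA, 0 with alpha3 siRNA and 8 between the siRNAs (against 51, 7 and 599 of all 8045 genes). The main fit called 0, 2 and 112 of all genes in the same order. Calls therefore rose over all genes in these comparisons, and not for the members alone.

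Single members changed sign on leaving out an array. With MT1-MMP siRNA against mock, IFI27 ran from -0.42 to 1.31, IFITM2 from -0.045 to 0.86, ISG15 from -0.38 to 0.37 (and 0.0029 with an offset of 1) and OAS1 from -0.33 to 1.13. With alpha3 siRNA against mock, IFI27 ran from -0.49 to 1.94, IFI6 from -0.023 to 1.75, IFIT3 from -0.23 to 0.10, IFITM1 from -1.10 to 0.68, IFITM3 from -0.55 to 0.27, ISG15 from -0.35 to 1.27 and OAS1 from -0.59 to 0.15. The cause was not tested.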
